A study of Mus musculus with 40 samples.

Results

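IL-1β and TNFα were set directly against each other in cardiac fibroblasts in which TAK1 had been left intact. The comparison holds 8 of the 40 libraries of the study, 4 with IL-1β and 4 with TNFα, chosen by their labels alone and paired by the replicate number that they share. The cells came from hearts of C57BL/6J_TAK1fl/fl mice, in which the gene for TAK1 is flanked by loxP sites, and were used at passage 1. Every library compared carried the control adenovirus Ad-CMV-LacZ, given for 48 h, and further libraries of the study carried an adenovirus with Cre recombinase (iCre). The cells were serum starved and received IL-1β at 15 ng/ml or TNFα at 10 ng/ml for 24 h, so the doses differ between the cytokines. A further 4 LacZ libraries received no ligand (CTRL). All 3 groups had received adenovirus, so none shows cells free of virus. The replicates of a group are described as biological replicates from male animals, and the labels do not tie a library to a single mouse or say whether animals were pooled.

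IL-1β binds a receptor that recruits the adaptor MyD88 and IRAK kinases, whereas TNFα binds receptors that recruit TRADD, TRAF and RIPK1. Both routes meet at TAK1, a kinase that passes the signal to the IKK complex and NF-κB and to the MAP kinases p38 and JNK. Fibroblasts of the injured heart are known to answer both cytokines with chemokines, proteases and adhesion molecules, and *Nos2*, the inducible nitric oxide synthase, and *Cxcl1*, a chemokine that attracts neutrophils, are textbook targets of NF-κB.

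Reads were counted per gene by the authors. Counts summed to between 26496502 and 43009526 per library in the 8 libraries compared. The test covered the 25210 genes that had 10 or more counts in the 40 libraries together. Levels are given as CPM, counts scaled to the size of each library after TMM normalisation, which are not corrected for gene length and are therefore compared between groups and not between genes. Differences are log2 fold changes of IL-1β minus TNFα from edgeR's quasi-likelihood test with the replicate number as a block, given with their standard error (SE), and a gene was called at an adjusted p of at most 0.05. Negative values stand for a higher level with TNFα. The 10 fibroblast markers summed to between 36600 and 69700 CPM under IL-1β and between 25800 and 34600 CPM under TNFα. Markers of macrophages, 7 genes, summed to between 51.1 and 177 CPM under IL-1β and between 43.8 and 167 CPM under TNFα, and those of leukocytes, 3 genes, to at most 9.58 CPM. In bulk RNA, a change in the number of cells of a type and a change in RNA per cell cannot be told apart.

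Of 25210 genes, 6107 (24.2%) separated the 2 cytokines. IL-1β gave the higher level for 3029 genes (12%) and TNFα for 3078 (12.2%). Most of these differences were small, with a median size of 0.50 on the log2 scale for genes higher with IL-1β and of 0.55 for genes higher with TNFα. A difference of at least 1 was reached by 670 genes (2.66%) for IL-1β and by 851 genes (3.38%) for TNFα. A difference of at least 3 was reached by 99 and 98 genes. In 3798 genes (15.1%) the 4 IL-1β libraries and the 4 TNFα libraries did not overlap. Without the block, 1220 genes were higher with IL-1β and 1206 with TNFα, and 2422 of the 6107 genes were still called, each in the same direction. The 1220 and 1206 genes are 4.84% and 4.78% of all genes, the background for every list count without the block. The plot of difference against level shows both arms.

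**Figure D1:**
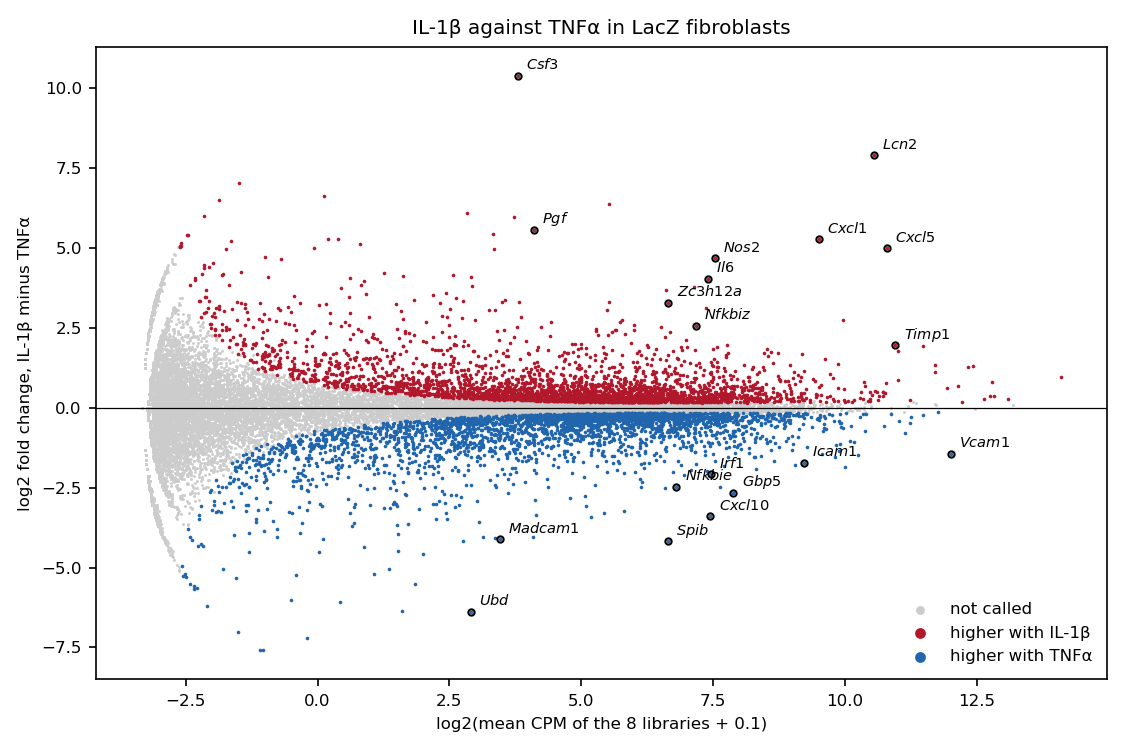
Log2 fold change of IL-1β minus TNFα in LacZ fibroblasts (vertical axis) against the log2 of the mean CPM of the 8 libraries plus 0.1 (horizontal axis), with 1 point per gene. Red points were called higher with IL-1β (3029 genes) and blue points higher with TNFα (3078 genes), and *Csf3* at 10.38 and *Ubd* at −6.38 mark the ends of the genes labelled.

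The promoters shown here hold the letters that NF-κB and interferon regulatory factors are known to bind, in genes from either side of the comparison. Each run holds the 250 bases before the RefSeq start of the gene on GRCm38.p6, 5′ to 3′ on the strand of the gene. *Cxcl1* and *Il6*, a cytokine of the acute phase, were higher with IL-1β, whereas *Icam1*, a receptor for leukocyte integrins, *Cxcl10*, a chemokine for T cells, and *Gbp5*, a GTPase of cell defence, were higher with TNFα. Capitals mark every match to the NF-κB motif GGANTTTCC or the interferon response motif GAAANNGAA on either strand. *Cxcl1*, *Il6* and *Icam1* held the NF-κB motif, and *Cxcl10* and *Gbp5* held first the interferon response motif and then the NF-κB motif. The windows lie at chr5:90890995-90891244 on the plus strand (*Cxcl1*), chr5:30012864-30013113 on the plus strand (*Il6*), chr9:21015690-21015939 on the plus strand (*Icam1*), chr5:92348890-92349139 on the minus strand (*Cxcl10*) and chr3:142496684-142496933 on the plus strand (*Gbp5*). GENCODE places *Gbp5* from 142493978 to 142522344, so this window lies inside the gene by that source.
Cxcl1: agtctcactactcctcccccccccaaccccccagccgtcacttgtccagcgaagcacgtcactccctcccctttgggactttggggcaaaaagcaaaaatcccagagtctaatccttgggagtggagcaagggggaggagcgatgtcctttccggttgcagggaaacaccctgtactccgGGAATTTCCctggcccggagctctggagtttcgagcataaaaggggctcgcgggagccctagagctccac
Il6: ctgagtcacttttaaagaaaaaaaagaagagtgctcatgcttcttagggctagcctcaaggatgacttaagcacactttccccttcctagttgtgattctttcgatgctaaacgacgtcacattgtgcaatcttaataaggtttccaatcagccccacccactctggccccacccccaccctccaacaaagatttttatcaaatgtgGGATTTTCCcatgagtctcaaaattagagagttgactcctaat
Icam1: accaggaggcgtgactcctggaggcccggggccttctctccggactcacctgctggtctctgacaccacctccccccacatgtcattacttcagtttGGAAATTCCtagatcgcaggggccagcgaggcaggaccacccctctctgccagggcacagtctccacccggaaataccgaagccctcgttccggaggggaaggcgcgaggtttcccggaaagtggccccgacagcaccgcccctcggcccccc
Cxcl10: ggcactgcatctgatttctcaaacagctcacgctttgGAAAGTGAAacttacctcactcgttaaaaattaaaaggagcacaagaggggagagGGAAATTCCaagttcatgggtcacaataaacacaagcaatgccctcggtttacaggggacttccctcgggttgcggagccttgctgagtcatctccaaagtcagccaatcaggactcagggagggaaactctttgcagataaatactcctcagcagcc
Gbp5: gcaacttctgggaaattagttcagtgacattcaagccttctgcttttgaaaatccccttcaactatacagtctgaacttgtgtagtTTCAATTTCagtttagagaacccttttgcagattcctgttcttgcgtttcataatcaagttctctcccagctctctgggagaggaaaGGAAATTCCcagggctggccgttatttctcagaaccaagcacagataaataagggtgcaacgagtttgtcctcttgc

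The NF-κB motif stood in the promoters of genes from both sides. For these counts the windows ran from 250 bases before to 50 bases after the start, both strands were read, and matches to different motifs could overlap and were each counted. RefSeq windows were found for 14603 of the 25210 genes tested, 18499 windows in all, and 1.41% of them held GGANTTTCC. Among genes higher by at least 1 it stood in 1.81% of 609 windows for IL-1β and in 3.55% of 733 windows for TNFα. In the list of chemokines and colony-stimulating factors that act on neutrophils, 4 of 8 windows held it. The interferon response motif GAAANNGAA stood in 7.56% of all windows, in 6.24% of the IL-1β windows and in 15% of the TNFα windows, and in 23 of 37 windows of the list of interferon-stimulated genes. The AP-1 motif TGANTCA stood in 11.3% of the IL-1β windows, 9.55% of the TNFα windows and 6.38% of all windows, and the C/EBP motif TTGCNNAA in 15.3%, 8.59% and 9.21%. These shares describe letters in a short window, and binding was not measured.

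*Cxcl1* (ENSMUSG00000029380, chromosome 5, 90891241 to 90893115, GRCm38) was at 1970, 804, 1400 and 1500 CPM in the 4 IL-1β libraries and at 42.3, 30.7, 35.5 and 33.4 CPM in the 4 TNFα libraries, in the order of their numbers. The groups lay far apart, and TNFα libraries in turn lay above CTRL, where *Cxcl1* was at 7.41 ± 0.560 CPM (SD, n = 4). The log2 fold change between the cytokines was 5.26 (SE 0.10, edgeR adjusted p = 1.13e-23), which is 38.5-fold. *Nos2* (ENSMUSG00000020826, chromosome 11, 78920787 to 78960254) was at 205, 362, 373 and 489 CPM under IL-1β and at 4.44, 25.2, 20.5 and 10.7 CPM under TNFα. The lowest IL-1β library stood above the highest TNFα library, and CTRL libraries held 0.0916 ± 0.0929 CPM (SD, n = 4). The log2 fold change of *Nos2* was 4.68 (SE 0.18, edgeR adjusted p = 1.21e-17). Both genes were higher with IL-1β in 4 of 4 pairs and kept their call in each alternative tried.

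Among the receptors, *Il1r1*, the signalling receptor of IL-1, was at 412, 276, 304 and 340 CPM under IL-1β and at 177, 153, 133 and 135 CPM under TNFα, with no overlap. Its log2 fold change was 1.15 (SE 0.07, edgeR adjusted p = 1.51e-13). Against CTRL it had risen by 0.71 with IL-1β and fallen by 0.44 on the log2 scale with TNFα. *Il1rap*, the accessory chain of the same receptor, was lower with IL-1β by a log2 fold change of −0.40, but its groups overlapped and the adjusted p was 0.326 without the block. *Tnfrsf1b*, the second TNF receptor, was higher with IL-1β by 0.77 and *Tnfrsf1a*, the first, by 0.30, the latter with an adjusted p of 0.0656 without the block. *Il1r2*, a decoy receptor of IL-1, was higher with IL-1β by 1.31, at means of 1.26 and 0.509 CPM. *Il18bp*, a secreted inhibitor of IL-18, and *Myd88* were higher with TNFα, with log2 fold changes of −1.67 and −0.56. None of the 4 genes of the TAK1 complex was called, beside 24.2% of all genes, and with a GC correction 1 was called higher with TNFα. *Map3k7*, the gene for TAK1, had a log2 fold change of −0.12 (SE 0.06, edgeR adjusted p = 0.189).

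Within the IL-1 family of ligands, receptors and adaptors, 7 of 23 genes tested were higher with IL-1β and 7 with TNFα (12% and 12.2% of all genes), and 5 and 3 without the block. Within the TNF family, 10 of 46 were higher with IL-1β and 17 with TNFα, beside the same shares, and without the block these counts were 3 and 12. *Tnfsf11*, the ligand RANKL of osteoclast formation, was higher with IL-1β by 3.80 and *Tnfrsf21*, a death-domain receptor, by 3.29. *Traf1*, an adaptor of TNF receptors, was higher with TNFα (log2 fold change −3.00), as were *Tnfsf10*, the death ligand TRAIL (−2.92), and *Cd70*, a ligand of the TNF family (84.0-fold, with a 95% counting interval of 22.9 to 700 from 150 and 2 counts). *Il1rl1*, the receptor of IL-33, was at 238 and 711 CPM in replicate 2 of IL-1β and TNFα and at no more than 8.71 CPM in the other libraries of both groups, a wider gap than that between the cytokines, and the adjusted p was 0.713 without the block.

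Chemokines and growth factors for neutrophils and other myeloid cells were the list with the largest median among those higher with IL-1β. Of 10 genes tested, 8 were higher with IL-1β and 1 with TNFα (12% and 12.2% of all genes), with a median log2 fold change of 2.06 against 0 over all genes. Without the block the counts were 4 and 0. *Csf3*, the gene for the neutrophil growth factor G-CSF, was at 28.2, 27.7, 21.9 and 33.1 CPM under IL-1β and had 2 counts in all 4 TNFα libraries together, against 3816 counts with IL-1β. The IL-1β level was 1700-fold higher, with a 95% counting interval of 471 to 14100, and the fitted log2 fold change was 10.38 (adjusted p = 6.00e-23, edgeR). *Cxcl5*, another chemokine for neutrophils, was at 3700, 2830, 3260 and 3990 CPM under IL-1β and at 110, 241, 77.1 and 70.1 CPM under TNFα. Its groups did not overlap, and its log2 fold change was 4.98. *Csf1*, the growth factor of macrophages, was the member higher with TNFα, by −0.57, with overlapping groups and an adjusted p of 0.0872 without the block.

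Some chemokines were higher with TNFα. *Cxcl10* was at 1.75, 41.6, 28.4 and 73.7 CPM under IL-1β and at 56.3, 482, 285 and 428 CPM under TNFα. Replicate 1 was the lowest in both groups, so the groups overlapped, but TNFα was higher in 4 of 4 pairs. The log2 fold change was −3.39 (SE 0.17, edgeR adjusted p = 3.77e-15), and without the block the adjusted p was 0.0524. *Cxcl9*, which acts on the same receptor, *Ccl5*, a chemokine for T cells and monocytes, and *Ccl20*, which acts on CCR6, were higher with TNFα by −2.49, −1.97 and −2.52. In the list of interferon-type and homeostatic CXC chemokines, 4 of 8 genes were higher with TNFα and 2 with IL-1β, namely *Cxcl12*, a factor that retains stem cells and lymphocytes (1.13), and *Cxcl14* (1.25), beside 12.2% and 12% of all genes. Without the block these were 3 and 2. Among 19 CC and CX3C chemokines tested, 5 were higher with TNFα, 2 with IL-1β and 12 were not called, beside the same shares, and without the block 4 and 1 were called.

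**Figure D2:**
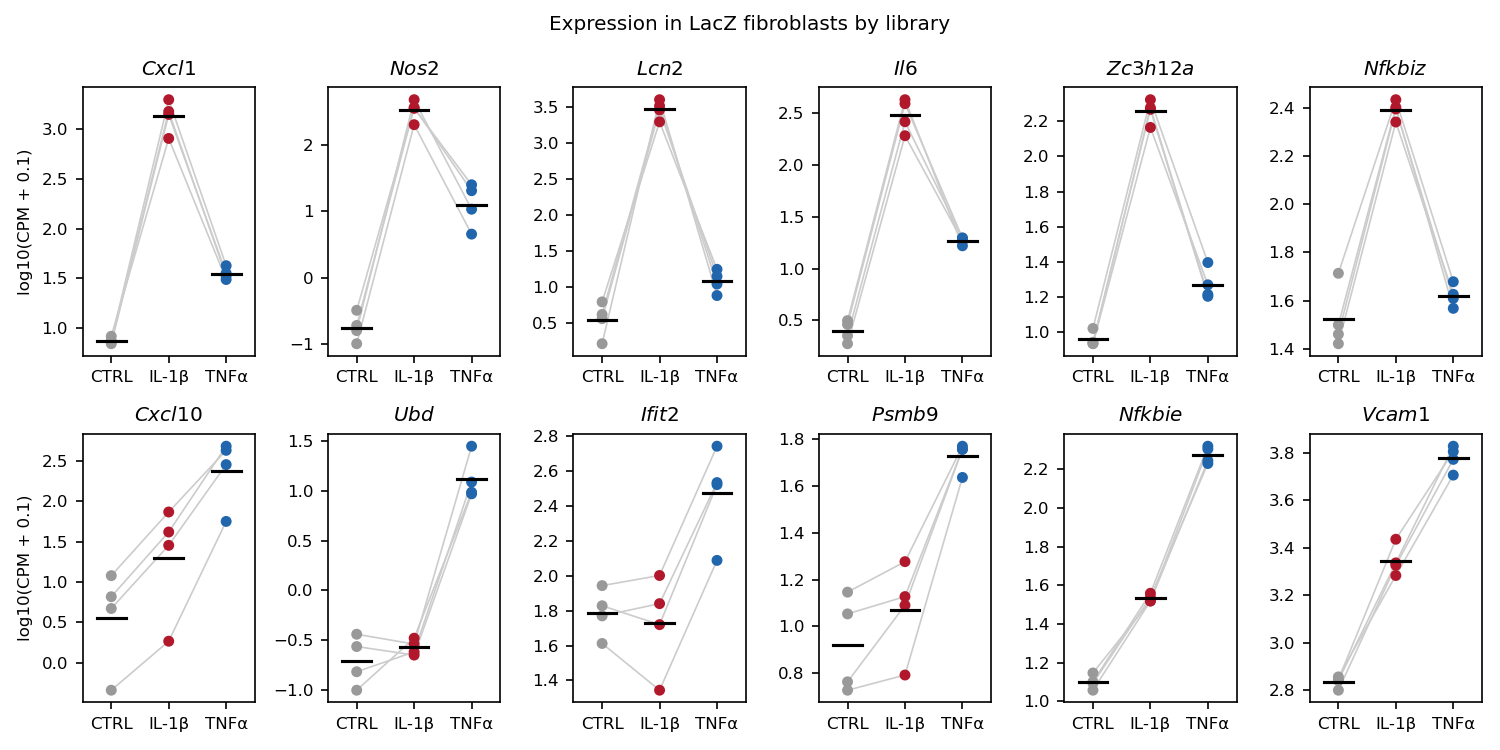
Levels of 12 genes in the 12 LacZ libraries, as log10 of CPM plus 0.1, with grey points for CTRL, red for IL-1β and blue for TNFα, lines that join libraries of the same replicate number and bars at the mean of the log values. The upper 6 genes were higher with IL-1β and the lower 6 with TNFα, and *Cxcl10* shows replicate 1 below the others in each group.

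In the list of IL-6 family cytokines and receptors, 8 of 15 genes were higher with IL-1β and 2 with TNFα (12% and 12.2% of all genes), and 4 against 1 without the block. *Il6* was at 428, 192, 262 and 392 CPM under IL-1β and at 16.5, 18.3, 19.5 and 19.7 CPM under TNFα. The TNFα libraries lay close together and below the lowest IL-1β library. The log2 fold change was 4.03 (SE 0.13, edgeR adjusted p = 2.98e-19). *Lif* and *Clcf1*, cytokines that signal through the receptor chain gp130, were higher with IL-1β by 1.73 and 1.01. *Lifr*, the receptor of LIF, was higher with TNFα by −0.88.

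Of 18 acute-phase proteins and adhesion molecules, 9 were higher with IL-1β and 6 with TNFα (12% and 12.2% of all genes), and 7 and 4 without the block. *Lcn2*, an iron-binding protein of the acute phase, was at 3950, 1950, 2850 and 3240 CPM under IL-1β and at 7.53, 17.5, 14 and 10.9 CPM under TNFα. These groups were 238-fold apart, with a log2 fold change of 7.89 (SE 0.21, edgeR adjusted p = 1.22e-20). *Steap4*, a metalloreductase, was higher with IL-1β by 2.75, and *Saa1* and *Saa2*, serum amyloid genes whose near-identical sequences make single-gene counts uncertain, by 3.22 and 3.74. Among the neutrophil markers, *S100a8* was at a mean of 0.793 CPM under IL-1β and 0.0433 CPM under TNFα, while *S100a9* and *Ly6g* had no count in either group. *Vcam1*, a receptor for lymphocyte and monocyte integrins, was at 2730, 1920, 2170 and 2120 CPM under IL-1β and at 6400, 5090, 6740 and 5930 CPM under TNFα. Its groups did not overlap, and the log2 fold change was −1.44 (adjusted p = 1.98e-16, edgeR). *Icam1* was higher with TNFα by −1.72, and *Madcam1*, an adhesion molecule of gut vessels, by −4.10, where replicate 2 of TNFα stood at 49.4 CPM and the others at 10.1 to 11.8 CPM.

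The NF-κB system itself was mostly higher with TNFα. Of 25 subunits, kinases and inhibitors, 18 were higher with TNFα and 5 with IL-1β (12.2% and 12% of all genes), with a median log2 fold change of −0.40, and without the block these counts were 13 and 2. *Nfkbie*, the inhibitor IκBε, was at 33.0, 36.1, 32.9 and 34.4 CPM under IL-1β and at 202, 209, 176 and 170 CPM under TNFα. The replicates of either group differed little beside the gap between them, and the log2 fold change was −2.47 (SE 0.07, edgeR adjusted p = 1.22e-20). *Tnip3*, *Tnip1* and *Tnfaip3*, which restrain signalling to NF-κB, were higher with TNFα by −2.43, −1.56 and −1.12. *Nfkbiz*, the gene for IκBζ, a nuclear cofactor of NF-κB, went the other way. It was at 252, 271, 219 and 248 CPM under IL-1β, at 36.9, 47.6, 42.2 and 40.6 CPM under TNFα and at 34.5 ± 11.6 CPM (SD, n = 4) in CTRL. Its log2 fold change was 2.57 (adjusted p = 1.22e-20, edgeR), and TNFα against CTRL gave 0.32 (edgeR adjusted p = 0.0109), a called rise, with the TNFα libraries inside the range of CTRL. *Map3k8*, a kinase upstream of ERK, was higher with IL-1β by 1.01.

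Regulators of cytokine mRNA stability differed in 5 of 13 genes, 3 higher with IL-1β and 2 with TNFα, beside 24.2% of all genes in either direction, and in 2 and 0 without the block. *Zc3h12a*, the RNase Regnase-1 that degrades cytokine transcripts, was at 210, 146, 189 and 185 CPM under IL-1β and at 24.8, 18.5, 16.3 and 15.9 CPM under TNFα. The groups did not overlap, and the log2 fold change was 3.28 (SE 0.08, edgeR adjusted p = 7.47e-21). *Zfp36*, the gene for tristetraprolin, was higher with TNFα by −0.80, with overlapping groups and an adjusted p of 0.0929 without the block.

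Interferon-stimulated genes were higher with TNFα with few exceptions. Of 45 genes tested, 43 were higher with TNFα and 0 with IL-1β, against 12.2% and 12% over all genes, with a median log2 fold change of −1.23. Without the block 25 were called, again 0 of them for IL-1β. *Ifit2*, an antiviral protein that binds RNA, was at 22, 69.0, 52.3 and 100 CPM under IL-1β and at 122, 340, 331 and 549 CPM under TNFα. Replicate 1 was the lowest and replicate 4 the highest in each group, the groups did not overlap, and the log2 fold change was −2.47 (SE 0.07, edgeR adjusted p = 1.42e-20). *Gbp5* was at 31.1, 76.7, 72.8 and 89.6 CPM under IL-1β and at 303, 522, 418 and 381 CPM under TNFα, a log2 fold change of −2.66. *Mx1*, an antiviral GTPase, was higher with TNFα by −2.48 with overlapping groups, and *Tgtp1*, a GTPase of the IRG family with a near-identical neighbour, by −4.03. Against CTRL, 45 of 45 genes of this list rose with TNFα (17.2% of all genes rose) and 37 rose with IL-1β (16.3% of all genes rose). These 2 comparisons share their CTRL libraries. The 2 genes not called between the cytokines were *Isg20* (0.04) and *Ifitm3* (−0.15), which were chosen for mention after their values were seen.

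Genes for antigen presentation and for the transcription factors of the interferon response followed. All 19 genes of MHC class I and the immunoproteasome that were tested were higher with TNFα (12.2% of all genes), with a median of −1.39. In 17 of 19 the groups did not overlap (15.1% of all genes). Without the block 17 were called. *Psmb9*, a catalytic subunit of the immunoproteasome, was at 6.09, 12.2, 13.3 and 18.8 CPM under IL-1β and at 43.2, 57.1, 57.0 and 58.8 CPM under TNFα, a log2 fold change of −2.16. *H2-Q6* and *H2-Q7*, closely related MHC genes between which reads may be split, were higher with TNFα by −2.90 and −2.67. Of 16 IRF and STAT genes, 9 were higher with TNFα and 0 with IL-1β (12.2% and 12% of all genes), and 5 and 0 without the block. *Irf1*, a transcription factor of the interferon response, was at 58.9, 75.9, 64.7 and 66.0 CPM under IL-1β and at 288, 407, 244 and 208 CPM under TNFα, with no overlap and a log2 fold change of −2.07. *Irf5*, another factor of this family, was higher with TNFα by −2.32. The leukocyte markers *Ptprc* and *Cd52* were not called, at log2 fold changes of 0.00 and −0.49, and *Coro1a* was higher with TNFα by −1.23 at 3.64 CPM. The part of other cells in these lists was not tested.

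**Figure D3:**
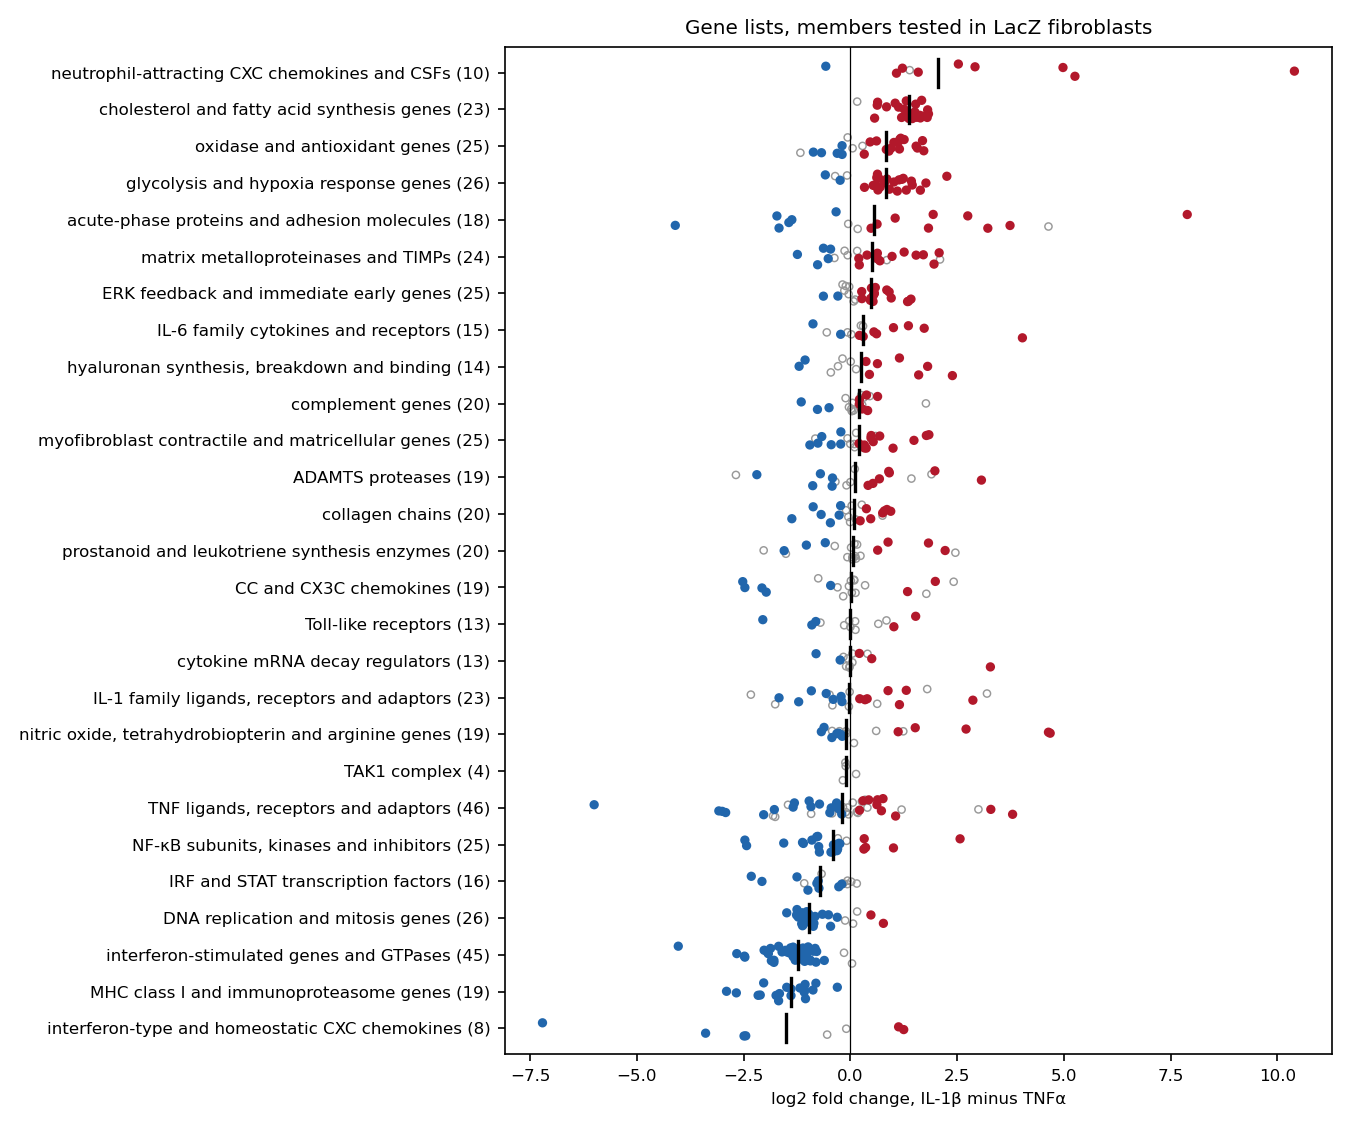
Log2 fold change of IL-1β minus TNFα (horizontal axis) for the genes tested in each of 27 lists, with the number of genes in brackets. Red and blue points were called higher with IL-1β and with TNFα, open points were not called, and bars mark medians, which run from 2.06 for neutrophil-attracting chemokines and CSFs to −1.50 for interferon-type and homeostatic CXC chemokines.

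Some of the largest differences lay in genes outside the lists. *Ubd*, the ubiquitin-like modifier FAT10 (chromosome 17, 37193892 to 37196095), was at 0.232, 0.190, 0.142 and 0.125 CPM under IL-1β and at 9.53, 27.8, 12.1 and 9.20 CPM under TNFα. IL-1β libraries lay in the range of CTRL, and the log2 fold change was −6.38 (SE 0.19, edgeR adjusted p = 1.41e-19). *Spib*, a transcription factor of the ETS family known from B cells, was at 10.7, 14.1, 10.1 and 7.20 CPM under IL-1β and at 179, 251, 176 and 151 CPM under TNFα. It was higher in every TNFα library, with a log2 fold change of −4.18 (SE 0.07, edgeR adjusted p = 2.42e-24). *Apol11b*, *Ip6k3*, *Cdh22* and *Slc6a4*, the serotonin transporter, had log2 fold changes from −6.37 to −4.57 at mean levels of up to 7.46 CPM under TNFα. On the IL-1β side the far end held *Pgf*, the placental growth factor, which was at 33.7, 32.7, 35.0 and 32.4 CPM under IL-1β and at 0.170, 1.33, 0.525 and 0.871 CPM under TNFα. CTRL lay between them at 3.67 ± 0.938 CPM (SD, n = 4), so the 2 cytokines moved *Pgf* in opposite directions, by log2 fold changes of 3.22 and −2.44 against CTRL. *Sprr2b* and *Sprr2e*, neighbours in a family of cornified envelope genes of closely related sequence, were higher with IL-1β by 6.36 and 6.08, and how reads were divided between them is uncertain.

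In the metabolism of arginine and nitric oxide, 5 of 19 genes were higher with IL-1β and 7 with TNFα (12% and 12.2% of all genes), and 4 and 1 without the block. The 7 became 2 without replicate 3, near the 9.30% of all genes there, and 4 without replicate 1 or with DESeq2. The 5 genes higher with IL-1β included *Nos2* (4.68), *Slc7a2*, an arginine transporter (1.52), and *Odc1*, the first enzyme of polyamine synthesis (1.12). *Slc7a2* was at 1320, 793, 1290 and 1250 CPM under IL-1β and at 468, 287, 432 and 437 CPM under TNFα, without overlap. *Gch1*, the first enzyme in the synthesis of the cofactor tetrahydrobiopterin, was higher with TNFα, by −0.62. Of 25 genes for oxidases and antioxidants, 16 were higher with IL-1β and 5 with TNFα (12% and 12.2% of all genes), with a median of 0.84, and 13 and 2 without the block. The 5 became 3 without replicate 2 or replicate 3, near the shares of all genes there (12.8% and 9.30%). *Srxn1*, sulfiredoxin, was at 193, 326, 382 and 400 CPM under IL-1β and at 92.2, 123, 95.0 and 114 CPM under TNFα, a log2 fold change of 1.57. *Nqo1*, a quinone reductase, was higher with IL-1β by 1.54, and the metallothioneins *Mt1* and *Mt2* by 1.72 and 1.69. The 5 higher with TNFα included *Cybb* and *Cyba*, the subunits of the phagocyte oxidase (−0.87 and −0.68), the former with an adjusted p of 0.0784 without the block. *Csf1r*, *C1qa* and *Mrc1*, 3 of 7 macrophage markers (beside 12% of all genes), were in contrast higher with IL-1β, by 0.44, 0.38 and 1.13. None of the 7 was called without the block.

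Genes of glycolysis and the hypoxia response were higher with IL-1β in 22 of 26 cases and with TNFα in 2 (12% and 12.2% of all genes), with a median log2 fold change of 0.83, and 20 had groups that did not overlap (15.1% of all genes). Without the block 19 and 0 were called. *Pfkfb3*, an activator of glycolytic flux, was at 175, 148, 167 and 164 CPM under IL-1β and at 35.6, 72.1, 46.1 and 43.6 CPM under TNFα. The groups did not overlap, TNFα against CTRL gave 0.03, and the log2 fold change between the cytokines was 1.77 (SE 0.11, edgeR adjusted p = 3.73e-13). *Slc16a3*, an exporter of lactate, was higher with IL-1β by 1.64. *Adm*, the gene for adrenomedullin, and *Pfkp* were higher with TNFα, by −0.59 and −0.24, and were not called without the block. Against CTRL, 22 of the 26 rose with IL-1β (16.3% of all genes) and 19 with TNFα (17.2%).

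Genes of cholesterol and fatty acid synthesis were higher with IL-1β in 22 of 23 cases and with TNFα in 0 (12% and 12.2% of all genes), with a median log2 fold change of 1.37. Without the block 9 were called. Against CTRL, 23 of 23 rose with IL-1β (16.3% of all genes), whereas 2 rose and 4 fell with TNFα (17.2% and 18.4% of all genes). *Sqle*, squalene epoxidase, was at 184, 116, 89.9 and 115 CPM under IL-1β and at 55.4, 96.3, 11.3 and 20.4 CPM under TNFα, beside 50.5 to 62.0 CPM in CTRL. The TNFα libraries fell into a higher pair, replicates 1 and 2, and a lower pair, replicates 3 and 4. Over the 23 genes, the median log2 ratio of TNFα to the CTRL library of the same number was 0.26 and 0.52 in replicates 1 and 2 and −1.04 and −0.94 in replicates 3 and 4. With IL-1β it was 1.72, 0.90, 0.79 and 0.70. *Lss*, lanosterol synthase, was higher with IL-1β by 1.71 without overlap, and *Sqle* by 1.83, with an adjusted p of 0.139 without the block.

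**Figure D4:**
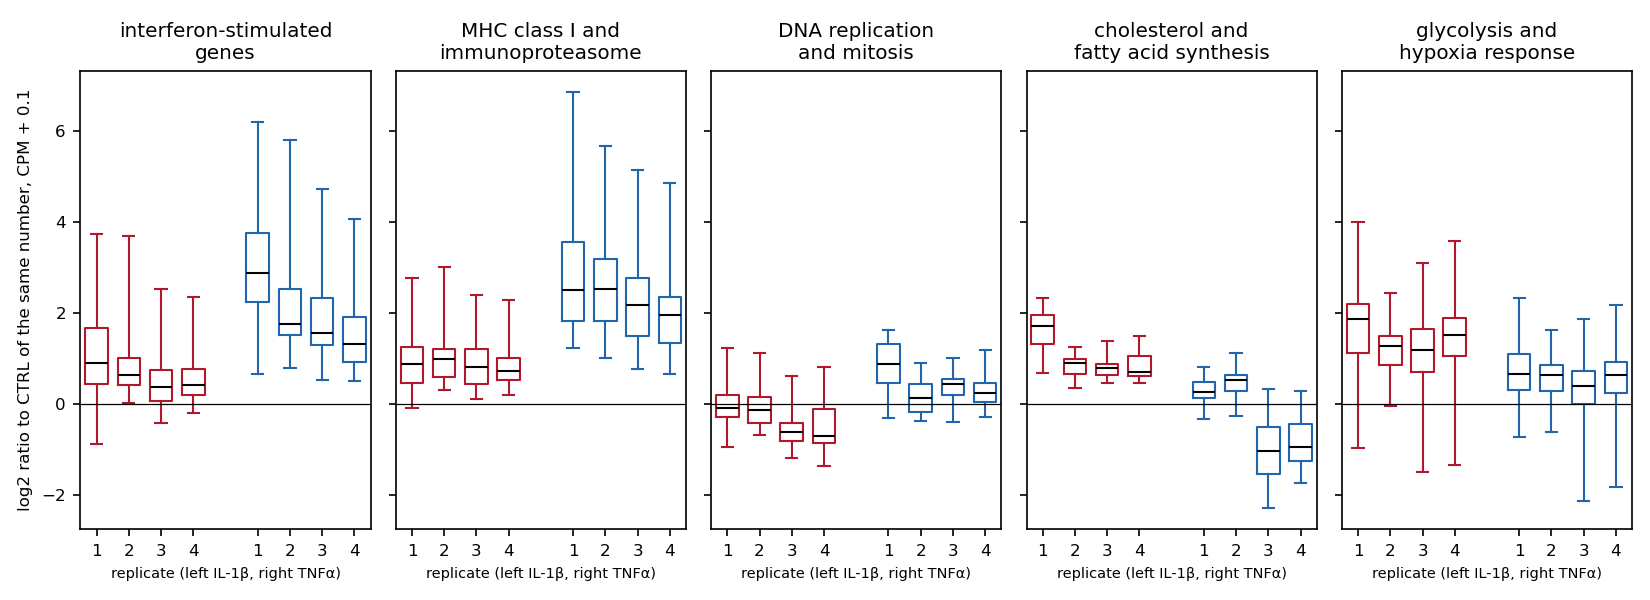
Log2 ratio of each LacZ library to the CTRL library of the same replicate number (CPM plus 0.1) over the genes tested in 5 lists, with red boxes for IL-1β and blue boxes for TNFα. Boxes span the quartiles, whiskers the lowest and highest gene and black lines the median, and in the list of cholesterol and fatty acid synthesis the TNFα medians lie above 0 in replicates 1 and 2 and below 0 in replicates 3 and 4.

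Genes of DNA replication and mitosis were higher with TNFα in 21 of 26 cases and with IL-1β in 2 (12.2% and 12% of all genes), with a median of −0.98. Replicates differed widely in the level of these genes, and without the block 4 and 1 were called. *Mki67*, a marker of proliferating cells, was at 15.9, 9.77, 33.7 and 25.4 CPM under IL-1β and at 52.0, 18.2, 96.6 and 84.2 CPM under TNFα. The groups overlapped, TNFα was higher in 4 of 4 pairs, and the log2 fold change was −1.49 (adjusted p = 3.19e-13, edgeR, and 0.0760 without the block). Against CTRL, 17 of the 26 fell with IL-1β (17.3% of all genes fell), and 19 rose with TNFα (17.2%). Immediate early genes and feedback genes of the ERK pathway were higher with IL-1β in 16 of 25 cases and with TNFα in 2 (12% and 12.2% of all genes), and in 9 and 2 without the block. *Ier3* and *Phlda1* were higher with IL-1β by 1.42 and 1.34, and *Dusp1*, a phosphatase of MAP kinases, was higher with TNFα by −0.63.

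Matrix genes were divided. Of 24 metalloproteinases and TIMPs tested, 12 were higher with IL-1β and 5 with TNFα (12% and 12.2% of all genes), and 5 and 0 without the block. *Timp1*, an inhibitor of metalloproteinases, was at 4910, 1760, 2650 and 3520 CPM under IL-1β and at 744, 650, 821 and 876 CPM under TNFα, without overlap and with a log2 fold change of 1.96. *Timp3* went the other way, with −1.24, overlapping groups and an adjusted p of 0.147 without the block. *Adamts3*, a procollagen protease, was higher with IL-1β by 3.07 and *Adamts8* with TNFα by −2.19. *Has1* and *Has2*, the synthases of hyaluronan, were higher with IL-1β by 2.39 and 1.6. Over the ADAMTS proteases 7 of 19 were higher with IL-1β and 5 with TNFα, beside the same shares, and 6 and 3 without the block, and over the genes of hyaluronan 7 and 2 of 14, the latter near the share of all genes, and 5 and 0 without the block.

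Of 20 collagen chains, 7 were higher with IL-1β and 6 with TNFα (12% and 12.2% of all genes), and 5 and 1 without the block. *Col1a1* and *Col3a1*, the main fibrillar chains, were higher with IL-1β by 0.80 and 0.95, and *Col7a1* and *Col6a3* with TNFα by −1.37 and −0.87, the latter with an adjusted p of 0.110 without the block. Of 25 contractile and matricellular genes, 12 were higher with IL-1β and 6 with TNFα, beside the same shares, and 2 and 0 without the block. *Lox*, which crosslinks collagen, was higher with IL-1β by 1.78, and *Acta2*, smooth muscle actin, with TNFα by −0.95, the latter with an adjusted p of 0.0705 without the block. Pericyte markers moved beside these genes. *Rgs5* was at 583, 237, 755 and 747 CPM under IL-1β and at 132, 60.4, 354 and 227 CPM under TNFα. Of 4 pericyte markers, 3 were higher with IL-1β and 1 with TNFα (12% and 12.2% of all genes), and 2 and 0 without the block. The 1 became 0 with DESeq2, without replicate 3 and without replicate 4. The 4 markers summed to between 255 and 772 CPM under IL-1β against 71.9 to 368 CPM under TNFα. Their part in the matrix genes was not tested.

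The remaining lists were those of prostanoid enzymes, Toll-like receptors and complement. *Ptgs2*, cyclooxygenase 2, was at 94.4, 191, 128 and 182 CPM under IL-1β and at 12.5, 112, 24.3 and 24.0 CPM under TNFα. Replicate 2 of TNFα lay within the IL-1β range, and the log2 fold change of 2.22 had an adjusted p of 3.62e-10 (edgeR), or 0.0882 without the block. *Ptges*, a prostaglandin E synthase, was higher with TNFα by −0.59, with an adjusted p of 0.158 without the block. Over the list of prostanoid and leukotriene enzymes, 4 of 20 were higher with IL-1β and 3 with TNFα, beside 12% and 12.2% of all genes, and 2 and 0 without the block. Toll-like receptors and their partners gave 2 and 3 of 13, beside 12% and 12.2% of all genes, and 1 and 3 without the block. In this list *Tlr2*, a receptor of bacterial lipoproteins, was at 153, 141, 181 and 200 CPM under IL-1β and at 362, 253, 330 and 315 CPM under TNFα. Complement genes gave 6 and 3 of 20, beside the same shares, with *C2* and *Cfb*, the proteases of the C3 convertases, higher with TNFα by −1.15 and −0.77. Without replicate 3 the 6 complement genes became 3, without the block 0 and 1 complement genes were called, and the adjusted p of *Cfb* was 0.0873. Markers of other cells were low, with sums of at most 10.4 CPM for endothelial cells, 7.70 CPM for cardiomyocytes, 4.75 CPM for mesothelial cells and 8.08 CPM for Schwann cells in the 8 libraries.

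The same difference was measured in fibroblasts that received iCre, which removes the floxed part of the TAK1 gene. *Map3k7* counts averaged 126 CPM under IL-1β and 144 CPM under TNFα in the 4 iCre libraries of each ligand, against 220 and 239 CPM in LacZ fibroblasts. The difference between the cytokines changed with the virus in 2699 genes (10.7%) by the interaction over 16 libraries, and it was raised in iCre for 1500 and lowered for 1199. Relative to the 40 libraries together, levels fell with GC content in each of these LacZ libraries and rose in each of these iCre libraries. The CPM given for either virus, here and further on, are not corrected for this. With a GC correction, 2619 of the 2699 genes were still called. The genes named next were chosen for their difference in LacZ fibroblasts, which enters the interaction, so their values are given as a description. *Irf1* was at 44.8 CPM under IL-1β and 64.6 CPM under TNFα in iCre fibroblasts, and its interaction was 1.56. *Il6* was at 57.0 and 14.8 CPM, with an interaction of −2.19, and *Lcn2* at 414 and 12.2 CPM, with an interaction of −2.81. In these genes both arms were closer together in iCre than in LacZ fibroblasts. *Nos2* was at 9.46 and 0.122 CPM in iCre fibroblasts, and its interaction of 1.68 was not called (adjusted p = 0.216, edgeR), and its log2 fold change between the cytokines in iCre fibroblasts was 6.16.

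By list, the interaction was called in 19 of 45 interferon-stimulated genes and in 13 of 19 genes of MHC class I and the immunoproteasome, each time raised in iCre (5.95% of all genes). It was called in 20 of 26 genes of DNA replication and mitosis, each time lowered (4.76% of all genes), so that these genes were further apart in iCre fibroblasts, where *Plk1*, a mitotic kinase, was at 7.28 CPM under IL-1β and at 54.5 CPM under TNFα. Of 26 glycolysis and hypoxia genes, 14 were lowered and 1 raised, and 4 and 0 without replicate 3, 8 and 0 without replicate 4. These counts changed with the pairing and with single replicates. Without the block the interaction was called in 184 genes raised and 158 lowered in iCre, and in 4 interferon-stimulated genes, 5 MHC genes, 1 replication gene and 1 glycolysis gene. That setting called 0.730% of all genes as raised and 0.627% as lowered, against 1.54% and 1.16% without replicate 3, 7.30% and 7.03% without replicate 1 and 2.63% and 2.15% without replicate 4. Without replicate 3 it was called in 389 and 292 genes, and in 0 of 45 interferon-stimulated genes, 5 of 19 MHC genes and 7 of 26 replication genes. Without replicate 1 it was called in 43, 18 and 23 genes of these lists. The median interaction went from 1.10 to 0.92 without replicate 3 and 1.42 without replicate 1 for interferon-stimulated genes, from 0.96 to 0.92 and 0.91 for MHC genes and from −1.38 to −1.41 and −1.54 for replication genes, whose median was −0.94 without replicate 2, with 17 of 26 genes called, beside 3.85% of all genes. Without replicate 4 it was called in 663 and 541 genes, and in 5, 8 and 16 genes of the 3 lists.

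**Figure D5:**
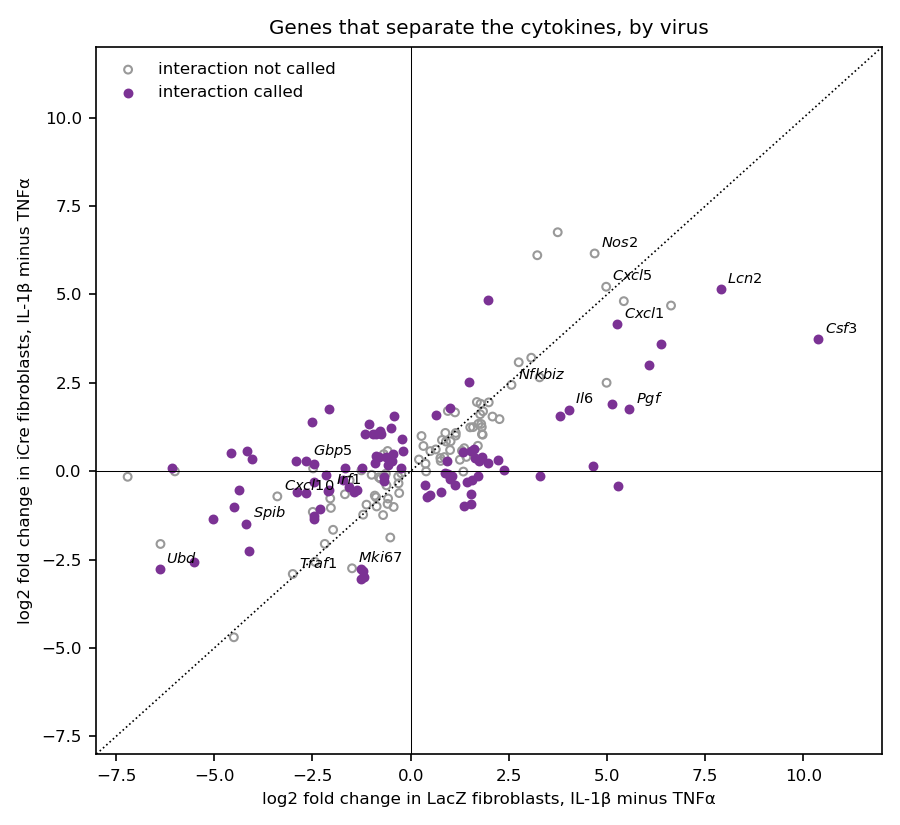
Log2 fold change of IL-1β minus TNFα in iCre fibroblasts (vertical axis) against that in LacZ fibroblasts (horizontal axis) for the 185 genes named for their size or their list, which were chosen on the horizontal axis, with a dotted line where both are equal. Filled points are genes whose interaction was called, among them *Lcn2* at 7.89 in LacZ fibroblasts, and open points are the others, among them *Nos2* at 4.68.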

How the data were processed

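Polyadenylated RNA of cultured cardiac fibroblasts was sequenced in 40 libraries, 4 replicates in each of 10 groups, of which 8 libraries enter the main comparison, 4 more (CTRL) the comparisons with untreated cells and 8 more (iCre) the interaction. The labels name the NEBNext Ultra II kit, whereas the methods of the study name a TruSeq Stranded kit. The authors deposited raw counts of reads per gene, made after alignment with STAR to mm10 and counting with HTSeq, and the submitters' processing notes give FastQC 0.10.1 and HTSeq 0.10.0. How HTSeq treated strand, and which annotation release it used, is not given in the sources used here, so reads of overlapping and antisense genes, and of near-identical copies, may be divided in ways that cannot be checked. No column of the deposited counts was left unmapped to a sample (0 unused columns).

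Members and lists were chosen with earlier results of these data known. Libraries summed to between 25360947 and 66160732 counts. Genes with at least 10 counts over the 40 libraries were tested with edgeR 4.0.16 in R 4.3.3 (TMM scaling, quasi-likelihood test, replicate number as a block, Benjamini-Hochberg adjustment over 25210 genes). Standard errors were derived from the F statistic. The pairing by replicate number was part of the definition of the comparison. Same-numbered IL-1β and TNFα libraries of LacZ fibroblasts deviated together from their group means. Their correlations were 0.728, 0.808, 0.658 and 0.668 over 11849 genes, against −0.515 to 0.292 for different numbers. These correlations do not cover the iCre libraries, which share the same block in the interaction. Genes named were *Nos2*, *Cxcl1*, 4 receptor genes and *Map3k7*, then the 12 protein-coding genes with the largest difference in each direction (at least 1 CPM in the higher group, the same sign in 4 of 4 pairs, no overlap), up to 4 called members per direction of each list, and the 6 of these with the largest interaction among those called. *Isg20*, *Ifitm3* and the marker genes fall outside this rule and were named after their values were seen. Intervals on count ratios are exact 95% intervals that cover counting error only. Some genes that meet the rule are not reported here.

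On simulated counts for the 25210 genes with 200 changed genes, the paired test recovered 98 of 100 genes changed by 1 on the log2 scale and 100 of 100 changed by 2, with 11 false calls among 209, and the interaction recovered 77 and 100, with 6 false calls among 183. The simulation changed only genes at 1 CPM or more and gave every gene the same dispersion. Each replicate number had the same shift under every ligand and virus. The data need not meet these settings, so the figures describe the simulation only. The alternatives were no replicate block, DESeq2 1.42.0, RLE scaling, other filters on low counts, protein-coding genes only, all 40 libraries in 1 fit, a GC correction, a fold minimum and each replicate number left out in turn. Promoter sequences and gene positions are those of RefSeq and GENCODE for GRCm38. Tables and plots were made with Python 3.11.15, pandas 2.3.3, numpy 2.4.6 and matplotlib 3.10.9.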

Additional observations from a re-analysis of the deposited data

Results flagged for a closer look

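In 34 of 349 groups of 4 libraries tested, 1 library lay further from the other 3 than Dixon's test allows at its 95% level. Chance alone would give about 1 in 20 groups. The 349 groups cover the named genes and the library totals. Cases in genes not reported here are left out of the 34 while their groups stay in the 349, so the share can be too low. Replicate 2 was the library concerned in 23 cases, replicate 4 in 7, replicate 1 in 4 and replicate 3 in 0. In replicate 2 of TNFα stood *Ubd* at 27.8 CPM (others 9.2 to 12.1 CPM), *Pglyrp2* at 4.65 CPM (others 0.53 to 1.22 CPM) and *Il1rl1* at 711 CPM (others 2.51 to 8.71 CPM). Further cases were *Tnfsf11* at 4.37 CPM (others 0.203 to 0.341 CPM), *Tnfrsf9* at 27.9 CPM (others 7.77 to 10.9 CPM) and *Bcl3* at 111 CPM (others 66.3 to 73.9 CPM). Further cases were *Ptgs2* at 112 CPM (others 12.5 to 24.3 CPM), *Mmp8* at 6.81 CPM (others 1.11 to 1.52 CPM) and *Adamts3* at 2.31 CPM (others at most 0.909 CPM). Further cases were *Adamts14* at 64.3 CPM (others 31.6 to 32.1 CPM), *Cfb* at 91.3 CPM (others 36.4 to 44.4 CPM) and *Madcam1* at 49.4 CPM (others 10.1 to 11.8 CPM). Further cases were *Cd14* at 15.8 CPM (others 4.58 to 5.83 CPM), *Zfp36* at 103 CPM (others 43.7 to 52.3 CPM) and *Tpm1* at 1040 CPM (others 537 to 613 CPM). Further cases were *Egr3* at 6.99 CPM (others 1.36 to 2.21 CPM) and *Aldoc* at 3.36 CPM (others 0.417 to 0.691 CPM).

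In replicate 2 of IL-1β stood *Il1rl1* at 238 CPM (others 0.997 to 5.24 CPM), *Slc7a2* at 793 CPM (others 1250 to 1320 CPM) and *Saa1* at 2.12 CPM (others 1.49 to 1.57 CPM). The same library had *Itih5* at 47.3 CPM (others 81.4 to 85.5 CPM), *Has2* at 33.8 CPM (others 48.6 to 51.5 CPM) and *Phlda1* at 220 CPM (others 148 to 160 CPM). Replicate 4 of TNFα had *Rasgef1a* at 3.75 CPM (others 5.73 to 5.91 CPM), *Mmp12* at 6.14 CPM (others 2.06 to 2.32 CPM) and *Adamts9* at 91.1 CPM (others 57.2 to 62.3 CPM). Replicate 4 of IL-1β had *Ccl6* at 27.3 CPM (others 5.59 to 7.4 CPM), *Lifr* at 62.9 CPM (others 74.6 to 76.5 CPM) and *Has1* at 25.3 CPM (others 14.1 to 15.6 CPM). It also had *Slc16a3* at 148 CPM (others 85.1 to 95.8 CPM). Replicate 1 of IL-1β had *Cxcl12* at 5320 CPM (others 4300 to 4450 CPM), *Ddah1* at 45.6 CPM (others 21 to 25.2 CPM) and *Ccn1* at 197 CPM (others 77.2 to 90.6 CPM). Replicate 1 of TNFα had *Psmb9* at 43.2 CPM (others 57 to 58.8 CPM).

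The difference between the cytokines itself differed between iCre and LacZ fibroblasts by the interaction term in edgeR, and 5 of the 6 named genes with the largest change among those called are given here. They were chosen for their difference in LacZ fibroblasts, which enters the interaction, so the values are a description. For *Csf3* the interaction was −7.61 on the log2 scale, at means of 3.97 CPM under IL-1β and 0.596 CPM under TNFα in iCre fibroblasts and 27.7 and 0.0157 CPM in LacZ fibroblasts. Replicate 2 held 2.33 CPM of *Csf3* under TNFα in iCre fibroblasts and the others at most 0.0324 CPM. For *Gad2* the interaction was −5.62 on the log2 scale, at means of 0.157 CPM under IL-1β and 0.241 CPM under TNFα in iCre fibroblasts and 2.04 and 0.0513 CPM in LacZ fibroblasts. For *Aqp4* the interaction was 6.41 on the log2 scale, at means of 0.014 CPM under IL-1β and 0.0127 CPM under TNFα in iCre fibroblasts and 0.0311 and 2.45 CPM in LacZ fibroblasts. In iCre fibroblasts 1 library of each ligand held a count of *Aqp4*, so its interaction restates the LacZ difference. For *Slc6a4* the interaction was 4.87 on the log2 scale, at means of 0.305 CPM under IL-1β and 0.24 CPM under TNFα in iCre fibroblasts and 0.299 and 7.46 CPM in LacZ fibroblasts. For *Nkain4* the interaction was 4.66 on the log2 scale, at means of 1.63 CPM under IL-1β and 1.5 CPM under TNFα in iCre fibroblasts and 0.711 and 12.7 CPM in LacZ fibroblasts.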

How the results depend on the processing

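Without the replicate block, 1220 genes were higher with IL-1β and 1206 with TNFα, 2408 genes fell with IL-1β against CTRL, 2745 rose and 2614 fell with TNFα against CTRL, and the interaction was raised in 184 and lowered in 158 genes. Of 188 genes named, 61 lost their call without the block, 31 with all 40 libraries in 1 fit, 9 without replicate 3, 5 without replicate 4, 4 with DESeq2, 4 with filterByExpr, 3 without replicate 1, 2 of 187 with protein-coding genes only and 1 without replicate 2, and none changed direction under these alternatives. With a log2 fold change of at least 1 required, 670 and 851 genes were left, by construction. Leaving out 1 replicate number at a time gave 2381 to 2891 genes higher with IL-1β and 2345 to 3229 higher with TNFα, and 2 of the 6107 genes changed sign without replicate 2. For the interaction it gave 389 to 1840 genes raised and 292 to 1772 lowered in iCre, with the lowest counts without replicate 3, where 677 of the 2699 genes were still called, and with 663 and 541 genes without replicate 4. DESeq2 lowered 2036 genes in the interaction against 1199. The causes were not tested, except that leaving out a replicate also leaves fewer samples. Genes with few counts in the lower group, such as *Csf3*, have ratios with wide counting intervals.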
